A study of Mus musculus with 6 samples.

Results

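Lysosomal genes were examined in mouse alveolar macrophages after bleomycin injury, as 37 genes chosen by name from the 22962 genes of the deposited table. They are 9 glycosidases, 7 proteins of lipid and protein breakdown, 4 membrane proteins, 14 subunits and accessory proteins of the proton pump, and 3 transcription factors of the MiT family. Cathepsins were not included. A row was found for each of the 37. The bleomycin group was 3 libraries (replicates 1, 2 and 5) from C57BL/6 mice that received bleomycin by the intratracheal route, labelled as a model of pulmonary fibrosis, and the saline group was 3 libraries (replicates 1, 2 and 3) from C57BL/6 mice given saline the same way. Lavage cells were taken at 2 weeks, left to adhere in culture plates for 30 min and washed before lysis, so the RNA came from adherent lavage cells that were not sorted. Age, dose and the number of mice behind a library are not in the labels. Whether the libraries were separate mice is not stated either, and a p-value here is set against the variation among these libraries alone, which may be technical.

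Lysosomes are acidic organelles in which macrophages break down engulfed cells, surfactant lipids and their own worn components. Soluble hydrolases do this work with the help of small lipid-presenting cofactors, and the vacuolar proton pump keeps the lumen acid by coupling ATP use in its outer V1 sector to proton transfer through its membrane V0 sector. TFEB, TFE3 and MITF are helix-loop-helix factors that bind E-box sequences in many lysosomal gene promoters, and their activity is set largely by phosphorylation and location in the cell, which RNA counts do not measure.

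Values are normalized read counts, that is reads of a gene divided by 1 size factor per library, and they rest on 28916201 to 37147983 reads in bleomycin libraries and 27654799 to 29899133 in saline libraries. The alveolar macrophage markers Siglecf, Marco, Car4, Mrc1, Itgax and Chil3 were detected in all 6 libraries, with Siglecf at 7228 to 8182 in bleomycin libraries and 12651 to 16187 in saline libraries. Summed over 10 alveolar macrophage markers, the value was 329724 to 432575 in bleomycin libraries and 559150 to 707755 in saline libraries. Of the 10, 8 had a log2 fold change below 0. Called lower (adjusted p under 0.05 by limma) were 5 of the 10, against 3.9% of all genes tested. Summed over 9 monocyte markers the value was 186253, 320818 and 372296 in bleomycin replicates 1, 2 and 5, against 34366 to 60351 in saline libraries. All 9 had a log2 fold change above 0 and 8 were called higher, against 9.76% of all genes tested. T cell markers (9 genes) summed to 223 to 749 in bleomycin libraries and 31.5 to 46.1 in saline libraries, B and plasma cell markers (7) to 85.3 to 1015 in bleomycin libraries and 16.3 to 22.6 in saline libraries, and dendritic cell markers (6) to 989 to 2126 in bleomycin libraries and 285 to 631 in saline libraries. Neutrophil markers (7) summed to 5671 to 6596 in bleomycin libraries and 2552 to 3860 in saline libraries, fibroblast markers (6) to 219 to 849 in bleomycin libraries and 35.3 to 321 in saline libraries, and epithelial markers (7) to 4411 to 4827 in bleomycin libraries and 5807 to 6943 in saline libraries. The epithelial sum rested largely on Epcam, which was called lower, while 4 of the 7 epithelial markers were called higher and the median log2 fold change of the 7 was 2.94. General macrophage markers (5) summed to 94941 to 118003 in bleomycin libraries and 82410 to 84241 in saline libraries, a ratio of 1.30. Of these 5, 4 had a log2 fold change above 0 and 1 was called higher. Cd68 is in that list and also among the other lysosomal membrane proteins below. Markers of osteoclasts and multinucleated macrophages (7) summed to 116414 to 135359 in bleomycin libraries and 89338 to 92760 in saline libraries. The largest part was Atp6v0d2, at 57099 to 61308 in bleomycin libraries and 51947 to 57277 in saline libraries, which was not called. Of the 5 markers of this list that were tested, 4 were called higher. Atp6v0d2 and Acp5 are also lysosomal genes reported below, so this list is not separate from them. Each of these sums was separated between the groups, apart from the fibroblast sum. There bleomycin replicate 2 (219) lay below saline replicate 3 (321). The part of the marker lists in the results below was not tested.

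After bleomycin, 8 of 16 hydrolases and cofactors and 2 of 4 membrane proteins, the LAMP proteins, were called higher, with 1 of 14 proton pump genes and 0 of 3 MiT factors. Whether these shares differ was not tested. A gene was called where the adjusted p from limma was under 0.05. Of the 37 genes, 11 were called higher and 0 lower. Of all 13512 genes tested, 13.7% were called, 9.76% higher and 3.9% lower. The 0 lower calls stood beside 1 gene lower at an unadjusted p under 0.05, and edgeR and DESeq2 on the recovered reads gave the same 11 higher calls and 0 lower. Over all genes edgeR called 9.64% higher and 3.83% lower, and DESeq2 called 9.61% higher and 3.79% lower. The fold change was above 0 on the log2 scale in 32 of the 37, against 48.7% of all genes tested, and its median was 0.26, against -0.01 over all genes. Bleomycin and saline values were fully separated in 17 of the 37 genes, where 30.8% of all genes tested were, and 16 of the 17 had bleomycin above, where 17.2% of all genes did.

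The 37 genes together made up 2.69%, 2.68% and 2.78% of the library in bleomycin replicates 1, 2 and 5, against 1.91%, 1.82% and 1.90% in saline replicates 1, 2 and 3. Psap alone was 42.6%, 43.0% and 44.3% of that sum in bleomycin libraries and 31.8%, 32.0% and 31.4% in saline libraries. Without Psap the sum of the other 36 was 491550, 485124 and 495799 in bleomycin libraries and 381767, 372416 and 402326 in saline libraries, a ratio of 1.27. The share of reads going to these genes was thus higher in each bleomycin library than in any saline library, with or without Psap. In bulk libraries fewer cells of a type and less RNA per cell cannot be told apart.

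How many genes were called depended on which libraries were used. Without bleomycin replicate 2, or without bleomycin replicate 5, 3 of the 11 were called, and these were Gla, Psap and Npc2 each time. Without saline replicate 1, 2 or 3 the number was 8, 6 and 7, and without bleomycin replicate 1 it was 11 higher and 1 lower. Over all genes the number called was 688 and 664 without bleomycin replicates 2 and 5, against 1846 with all libraries.

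**Figure D1:**
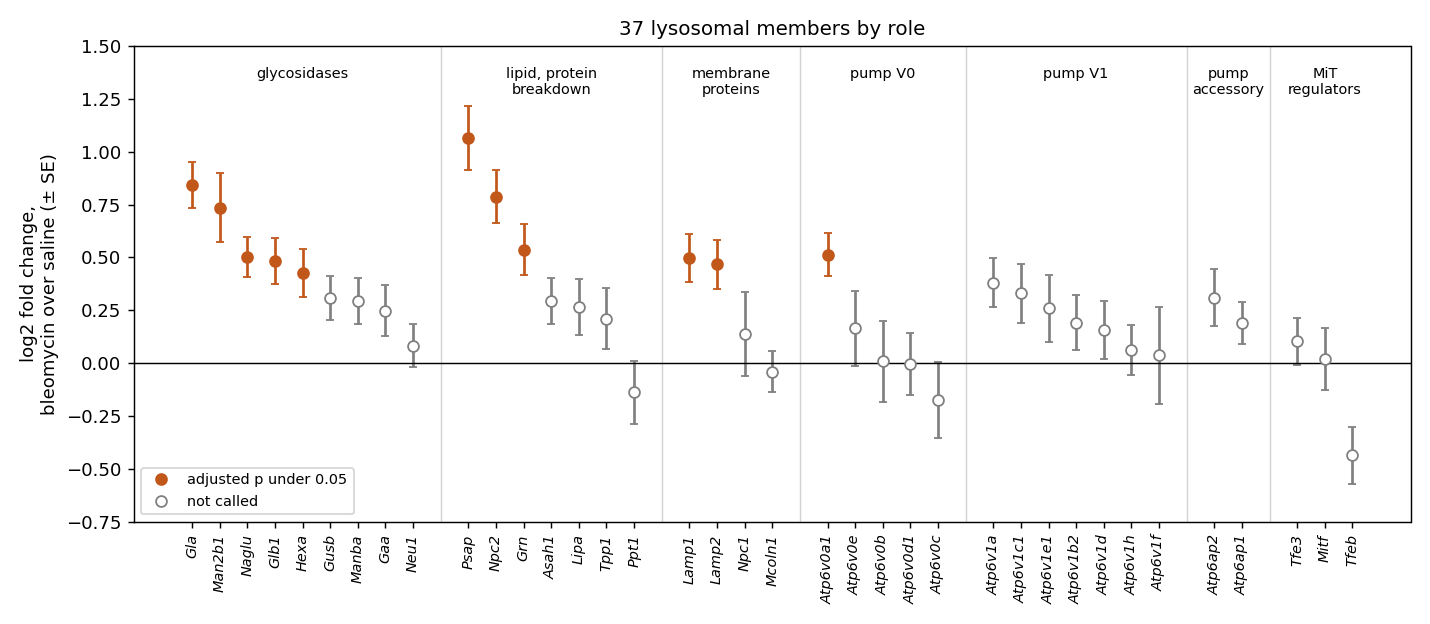
Log2 fold change of bleomycin over saline libraries (y axis, log2 of normalized read count + 1, bars are the standard error) for the 37 genes grouped by role along the x axis. Filled points are the 11 genes with an adjusted p under 0.05 by limma, which lie between 0.43 and 1.06, and 8 of them are hydrolases or cofactors.

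Of the 9 glycosidases, which strip sugars from glycoproteins, glycolipids and glycosaminoglycans, 5 were called higher (Gla, Man2b1, Naglu, Glb1 and Hexa). All 9 had a fold change above 0, with a median log2 value of 0.43. In 7 of the 9 every bleomycin library was above every saline library. Of all genes tested, 9.76% were called higher and 17.2% had every bleomycin library above every saline library.

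Gla, which encodes alpha-galactosidase A, the enzyme of globotriaosylceramide breakdown that is deficient in Fabry disease, lies at chrX:134588149-134601125 in GRCm38 (ENSMUSG00000031266). Its normalized read count was 4994, 5173 and 5101 in bleomycin replicates 1, 2 and 5, against 2818, 2597 and 3129.6 in saline replicates 1, 2 and 3. The groups were far apart, and the bleomycin libraries differed little among themselves, with a mean of 5089 ± 90.2 in bleomycin libraries and 2848 ± 268 in saline libraries (SD, n = 3 each). The log2 fold change was 0.84 ± 0.11 (SE), or 1.79-fold, with an adjusted p of 0.00153 by limma, and the largest adjusted p on leaving out a library was 0.0145, without bleomycin replicate 2.

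Man2b1 encodes the lysosomal alpha-mannosidase that trims N-linked glycans (chr8:85083270-85098282, ENSMUSG00000005142). It had 24893, 30179 and 32644.5 normalized reads in bleomycin replicates 1, 2 and 5, against 21059.5, 15001 and 16811 in saline replicates 1, 2 and 3. The groups did not overlap, but both were widely spread, with the lowest bleomycin library not far above the highest saline library. On the log2 scale the change was 0.74 ± 0.16, or 1.67-fold (limma adjusted p = 0.0182). The adjusted p by limma was 0.0905 without bleomycin replicate 2, 0.103 without bleomycin replicate 5, 0.0609 without saline replicate 2 and 0.0629 without saline replicate 3.

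Naglu, the alpha-N-acetylglucosaminidase of heparan sulfate breakdown (chr11:101070012-101077672, ENSMUSG00000001751), was the most even of the group. Its values were 4277, 4211 and 4224.5 in bleomycin libraries and 3077, 2902 and 3006.5 in saline libraries. The means were 4238 ± 34.6 in bleomycin libraries and 2995 ± 88.1 in saline libraries (SD, n = 3 each), many standard deviations apart. Its log2 fold change was 0.50 ± 0.10 (1.42-fold, limma adjusted p = 0.00946), and the adjusted p by limma was 0.0707 without bleomycin replicate 2 and 0.0701 without bleomycin replicate 5.

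Glb1, the acid beta-galactosidase that acts on GM1 ganglioside and keratan sulfate (chr9:114401076-114474898, ENSMUSG00000045594), had values of 2710.1, 2992 and 2979.8 in bleomycin libraries, against 2225, 1943 and 2051 in saline libraries. Hexa, the alpha subunit of beta-hexosaminidase A that degrades GM2 ganglioside (chr9:59539540-59565109, ENSMUSG00000025232), had values of 37134.5, 35412.5 and 36754 in bleomycin libraries, against 25702.5, 26188 and 29558 in saline libraries. In both genes every bleomycin library lay above every saline library. The log2 fold change was 0.48 ± 0.11 for Glb1 (1.4-fold, limma adjusted p = 0.0201) and 0.43 ± 0.11 for Hexa (1.34-fold, limma adjusted p = 0.0395). Leaving out a library moved the limma adjusted p of Glb1 to 0.131 without bleomycin replicate 2, 0.128 without bleomycin replicate 5, 0.0595 without saline replicate 2 and 0.0618 without saline replicate 3. That of Hexa was over the threshold without any library other than saline replicate 3, at 0.0635 without bleomycin replicate 1, 0.156 and 0.192 without bleomycin replicates 2 and 5, and 0.104 and 0.105 without saline replicates 1 and 2. Exons of Hexa share 255 bases with Tmem202 on the other strand and those of Glb1 share 165 bases with Tmppe on the same strand, and, with the strand setting not stated, reads in those stretches could not be told apart.

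The other 4 glycosidases were not called. Gusb, the beta-glucuronidase, had values of 12989, 13631 and 13633 in bleomycin libraries, against 11591, 10088 and 10907 in saline libraries, and Manba, the beta-mannosidase, had 3916, 3769 and 4035 in bleomycin libraries, against 3553.6, 3009.5 and 3025 in saline libraries. Neither overlapped between groups, and their log2 fold changes were 0.31 and 0.29 with 95% intervals of 0.07 to 0.54 and 0.04 to 0.54 (limma adjusted p = 0.0967 for Gusb and 0.13 for Manba). For Gaa, the acid alpha-glucosidase of glycogen breakdown, the interval was -0.03 to 0.52 around 0.25, and for Neu1, the sialidase, it was -0.15 to 0.31 around 0.08.

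With the values as deposited, the largest fold change of the 37 genes was that of Psap, and 3 of the 7 genes of lipid and protein breakdown were called higher (Psap, Npc2 and Grn), with a median log2 fold change of 0.29 over the 7. Of all genes tested, 9.76% were called higher. Psap encodes prosaposin, the precursor from which the 4 saposins that present sphingolipids to hydrolases are cut; it lies at chr10:60277627-60302597 (ENSMUSG00000004207). Its values were 365528, 365888 and 393529 in bleomycin replicates 1, 2 and 5, against 177925, 175439 and 184140 in saline replicates 1, 2 and 3. Each bleomycin library held about double the value of each saline library. The log2 fold change was 1.06 ± 0.15, or 2.09-fold, with a limma adjusted p of 0.00236 that stayed at or under 0.0238 without any 1 library. With quantile scaling its log2 fold change was 0.60 (limma adjusted p = 0.0417), under those of Gla (0.86) and Npc2 (0.76) on the same scaling. Per kilobase of its principal transcript Psap was at 141130 ± 6046 in bleomycin libraries and 67432 ± 1687 in saline libraries (SD, n = 3 each), the highest level per length of the 37 genes, and Grn was next at 23739 in bleomycin libraries and 16333 in saline libraries.

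Npc2, the soluble carrier that takes cholesterol from internal lysosomal membranes to NPC1 (chr12:84754562-84773152, ENSMUSG00000021242), had values of 32046.5, 29070.5 and 31663 in bleomycin libraries, against 16254, 17144.5 and 20589 in saline libraries. The highest saline library, replicate 3, was still well below the lowest bleomycin library. On the log2 scale the change was 0.79 ± 0.13 (1.73-fold, limma adjusted p = 0.00437), and 0.0335 was the largest adjusted p by limma with a library left out. Npc1, the membrane protein that receives this cholesterol, was not called. Its values were 7392, 10979.7 and 11876 in bleomycin libraries, against 10833, 7814 and 8548 in saline libraries, which overlap, and the log2 fold change was 0.14 with a 95% interval of -0.31 to 0.59. Exons of Npc1 share 511 bases with Rmc1 and 90 with Gm15956 on the other strand.

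Grn encodes progranulin, a secreted glycoprotein that is also carried to lysosomes and cut into granulins (chr11:102430315-102437048, ENSMUSG00000034708). Its values were 60358, 51344 and 54944 in bleomycin libraries, against 39222, 37759 and 37679 in saline libraries. Bleomycin replicate 1 was the highest and the saline libraries lay close together. Its log2 fold change was 0.54 ± 0.12 (1.45-fold, limma adjusted p = 0.0192). The adjusted p by limma was 0.067 and 0.108 without bleomycin replicates 2 and 5, and 0.0561 and 0.0555 without saline replicates 2 and 3. Exons of Grn share 68 bases with Fam171a2 on the other strand.

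Asah1, the acid ceramidase, had values of 16005, 18272 and 18276 in bleomycin libraries, against 14422, 14672 and 13722 in saline libraries. These did not overlap, but the log2 fold change of 0.29 (95% interval 0.05 to 0.54) was not called (limma adjusted p = 0.124). Lipa, the acid lipase that frees cholesterol and fatty acids from lipoproteins, had values of 30775.5, 39255 and 38282 in bleomycin libraries, against 29682, 28674 and 31386 in saline libraries. Here bleomycin replicates 2 and 5 were high and replicate 1 lay within the range of the saline libraries. Tpp1, a tripeptidyl peptidase, had values of 11759, 16602 and 16111 in bleomycin libraries, against 12834, 12545.5 and 12603 in saline libraries, with bleomycin replicate 1 below every saline library. The intervals of the log2 fold change were -0.04 to 0.56 for Lipa and -0.12 to 0.54 for Tpp1. Ppt1, the thioesterase that removes palmitate from proteins, was the only hydrolase with a fold change below 0, at -0.14 (95% interval -0.48 to 0.20), and its exons share 129 bases with Cap1 on the other strand.

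Over the 16 hydrolases and cofactors as a whole, 8 were called higher, against 9.76% of all genes tested, and the median log2 fold change was 0.37. Their sum without Psap was 265064, 273431 and 281757 in bleomycin libraries and 207397, 193845 and 207804 in saline libraries, a ratio of 1.35.

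**Figure D2:**
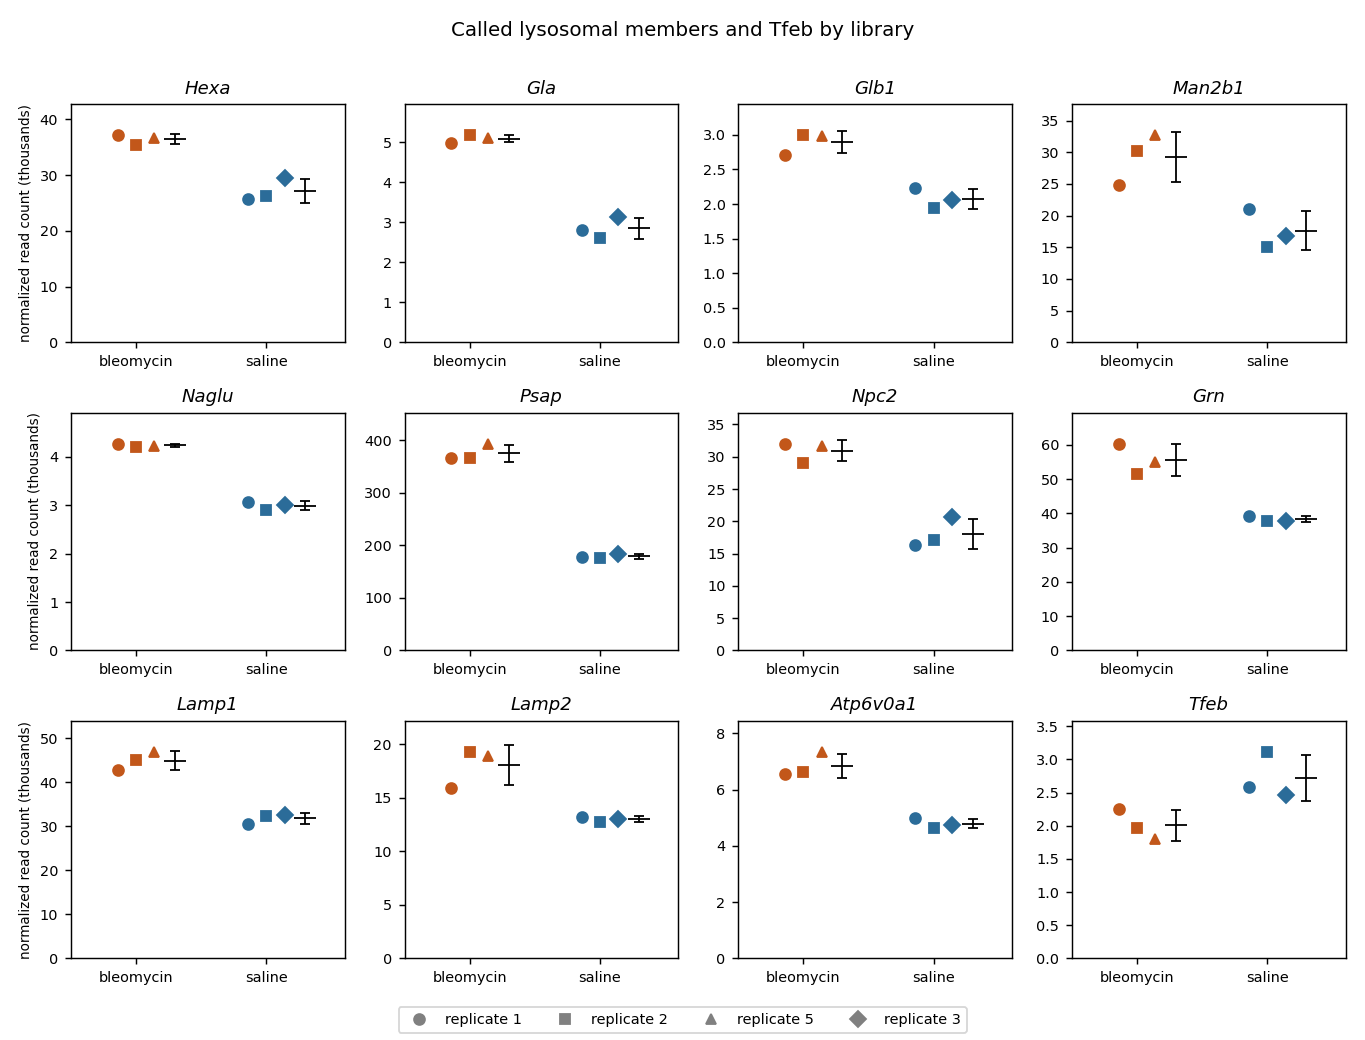
Normalized read count (y axis, divided by 1000, from 0, a different scale in each panel) in each bleomycin and saline library for the 11 called genes and for Tfeb. Symbols mark the replicate, and the horizontal line and bar beside each group are its mean and SD (n = 3). The groups do not overlap in any panel, and Tfeb alone is lower in bleomycin libraries.

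The LAMP proteins, heavily glycosylated proteins that line the inner face of the lysosomal membrane, were both called higher, whereas the cholesterol exporter Npc1 and the calcium channel Mcoln1 were not. Lamp1 (chr8:13159161-13175338, ENSMUSG00000031447) had values of 42758, 44969 and 46944 in bleomycin libraries, against 30424, 32379 and 32594 in saline libraries. Lamp2 (chrX:38401357-38456454, ENSMUSG00000016534), whose splice forms include the receptor of chaperone-mediated autophagy, had values of 15879, 19297 and 18888 in bleomycin libraries, against 13239.5, 12721.5 and 13026 in saline libraries. In both, all bleomycin libraries were above all saline libraries, and bleomycin replicate 1 was the lowest of its group. The log2 fold changes were 0.50 ± 0.11 for Lamp1 (1.41-fold, limma adjusted p = 0.02) and 0.47 ± 0.11 for Lamp2 (1.38-fold, limma adjusted p = 0.0294).

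The LAMP calls depended on single libraries. For Lamp1 the adjusted p by limma was 0.115 and 0.14 without bleomycin replicates 2 and 5 and 0.0578 without saline replicate 1. For Lamp2 it was 0.172 and 0.169 without bleomycin replicates 2 and 5, and 0.0616, 0.079 and 0.0773 without saline replicates 1, 2 and 3. Exons of Lamp1 share 249 bases with Grtp1 on the other strand. Mcoln1, which encodes the TRPML1 channel that releases lysosomal calcium, was almost level, at 3524, 3498 and 3647 in bleomycin libraries against 3789, 3555 and 3628 in saline libraries. Its log2 fold change was -0.04, with a 95% interval of -0.26 to 0.18.

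Among the 20 hydrolases, cofactors and membrane proteins, bleomycin replicate 1 was the lowest of the bleomycin libraries in 13. The same library had the lowest summed monocyte markers of its group, and the part of either in the other was not tested.

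Of the 14 proton pump genes, 1 was called higher, Atp6v0a1, and 0 lower, with 4 higher and 0 lower at an unadjusted p under 0.05 by limma and the same single call by edgeR and by DESeq2. Of all 13512 genes tested, 9.76% were called higher and 3.9% lower, and 2103 were higher and 1393 lower at that unadjusted p. The fold change was above 0 in 12 of the 14 pump genes, with a median log2 value of 0.18. The summed value of the pump genes was 148765, 124562 and 124363 in bleomycin replicates 1, 2 and 5, against 107215, 112789 and 128626 in saline replicates 1, 2 and 3. These sums overlapped, unlike those of the hydrolases.

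In the V0 sector, which carries protons across the membrane, the called gene was Atp6v0a1 (chr11:101009452-101063719, ENSMUSG00000019302), the a1 form of the large subunit that holds the proton half-channels. It had 6557, 6609 and 7347 normalized reads in bleomycin libraries, against 4984, 4649 and 4741.5 in saline libraries, with no overlap. On the log2 scale the change was 0.51 ± 0.10 (1.43-fold, limma adjusted p = 0.0116), and the adjusted p by limma was 0.0653 without bleomycin replicate 2 and 0.0961 without bleomycin replicate 5. The other 4 V0 genes overlapped between groups. For the proteolipid ring subunits Atp6v0b and Atp6v0c the log2 fold changes were 0.01 (95% interval -0.43 to 0.44) and -0.18 (-0.59 to 0.24). For Atp6v0d1, which couples the ring to the stalk, it was -0.01 (-0.34 to 0.33), and for the small subunit Atp6v0e it was 0.16 (-0.24 to 0.57). Exons of Atp6v0b share 243 bases with Gm12841 on the other strand.

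In the V1 sector, which hydrolyses ATP, 0 of 7 genes were called by limma, edgeR or DESeq2, with 2 higher at an unadjusted p under 0.05, and all 7 fold changes were above 0 (median log2 value 0.19). Atp6v1a, the catalytic subunit, came nearest. Its values were 8444, 10192 and 9786 in bleomycin libraries, against 7179.7, 6853 and 7763 in saline libraries, without overlap. Its log2 fold change was 0.38 ± 0.11 (1.3-fold, limma adjusted p = 0.0649), and without bleomycin replicate 1 it was called at a limma adjusted p of 0.0292. Atp6v1c1, a stalk subunit, had a log2 fold change of 0.33 with a 95% interval of 0.01 to 0.65, and its values overlapped at a single point, with 8776 in bleomycin replicate 5 and 8798 in saline replicate 3. The remaining 5 lay between 0.04 (Atp6v1f) and 0.26 (Atp6v1e1) on the log2 scale, each with a 95% interval that included 0. Exons of Atp6v1e1 and Atp6v1h share 32 and 127 bases with Slc25a18 and Rgs20 on the other strand. Of the accessory proteins, Atp6ap1 had values of 18671, 17791 and 18013 in bleomycin libraries, against 15449, 16196 and 16126 in saline libraries, without overlap but also without a call (log2 fold change 0.19, limma adjusted p = 0.285). Atp6ap2, the prorenin receptor, had a log2 fold change of 0.31 (limma adjusted p = 0.193).

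The pump genes shared a pattern over libraries that ran across the groups. Bleomycin replicate 1 was the highest of all 6 libraries in 11 of the 14, and saline replicate 3 was the highest saline library in 10 of the 14. Atp6v1e1, a peripheral stalk subunit, shows the arrangement, with 15425, 12499 and 11485 in bleomycin replicates 1, 2 and 5, against 9583, 10371 and 13017 in saline replicates 1, 2 and 3. Here the highest saline library lay above bleomycin replicates 2 and 5. Without bleomycin replicate 1 the median log2 fold change of the pump genes was 0.08, with 8 of 14 above 0. With both of these libraries left out, a choice made after the data were seen, the median was 0.15, with 9 of 14 above 0.

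These libraries also differed in how values moved with exon length over all genes. The slope of log2 value, relative to the mean of the libraries, per doubling of exon length was -0.08, 0.05 and 0.06 in bleomycin replicates 1, 2 and 5, and 0.06, -0.02 and -0.07 in saline replicates 1, 2 and 3. Short transcripts were thus relatively high in bleomycin replicate 1 and saline replicate 3. With each library's trend with length removed, also added after the data were seen, the median of the pump genes was 0.19 and 13 of the 37 genes were called higher, the earlier 11 with Gusb and Atp6v1a. Its part in the pattern over libraries was not tested further.

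**Figure D3:**
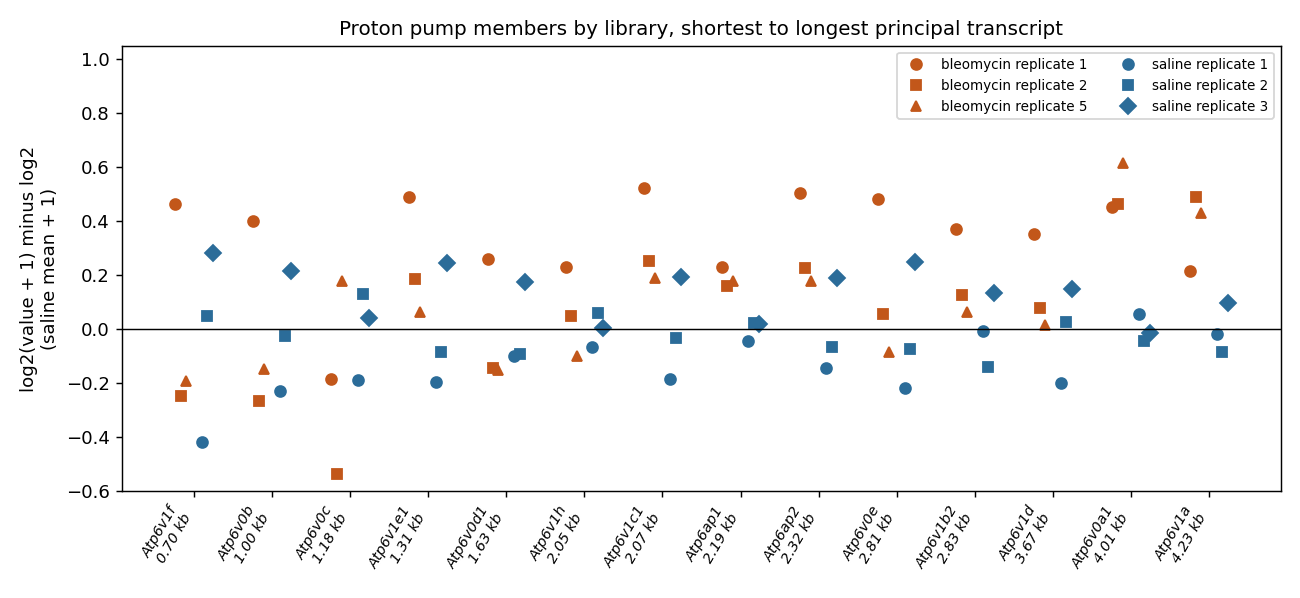
Level of the 14 proton pump genes in each library, as log2(normalized read count + 1) minus log2 of the saline mean + 1 (y axis), with genes ordered from the shortest to the longest principal transcript (kb, x axis). Orange circles, bleomycin replicate 1, are the highest symbol in 11 of the 14 genes, with Atp6v0a1, Atp6v0c and Atp6v1a the exceptions.

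Some pump subunits have alternative forms outside the 37 genes, and levels per kilobase of principal transcript place Atp6v0a1 among them. The main a form was Tcirg1 (a3, the form of osteoclasts and of macrophage lysosomes), at 5865 in bleomycin libraries and 4635 in saline libraries. Atp6v0a1 was at 1706 ± 110 in bleomycin libraries and 1196 ± 43.2 in saline libraries, and Atp6v0a2, a form of the Golgi and endosomes, at 264 ± 26.4 in bleomycin libraries and 259.5 ± 15.6 in saline libraries (SD, n = 3 each). Of the summed a level, Atp6v0a1 made up 22.2%, 20.4% and 22.8% in bleomycin libraries and 20.2%, 18.9% and 19.7% in saline libraries. These shares did not overlap, though the nearest differed by little, and the exact permutation test over libraries gave p = 0.1 (two-sided), the smallest p that 3 against 3 allows. Atp6v0a2 made up 3.17%, 3.42% and 3.50% in bleomycin libraries and 4.37%, 4.38% and 4.03% in saline libraries, a lower share after bleomycin that also did not overlap (exact permutation p = 0.1, two-sided). Exons of Atp6v0a2 share 663 bases with 4930404A12Rik on the other strand, where reads could not be told apart. Tcirg1 itself had 16733, 18738 and 18036 normalized reads in bleomycin libraries, against 14104, 14295 and 13888 in saline libraries, without overlap and with a log2 fold change of 0.34 ± 0.10 that was not called (limma adjusted p = 0.0655).

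The main d form was Atp6v0d2, at 23197 ± 855 per kilobase in bleomycin libraries and 21474 ± 1051 in saline libraries, above Atp6v0d1 at 6946 in bleomycin libraries and 6936 in saline libraries. It was 74.4%, 78.2% and 78.6% of the summed d level in bleomycin libraries and 77.7%, 75.9% and 73.2% in saline libraries (exact permutation p = 0.5, two-sided). Neither form was called, with log2 fold changes of 0.11 for Atp6v0d2 (limma adjusted p = 0.633) and -0.01 for Atp6v0d1.

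**Figure D4:**
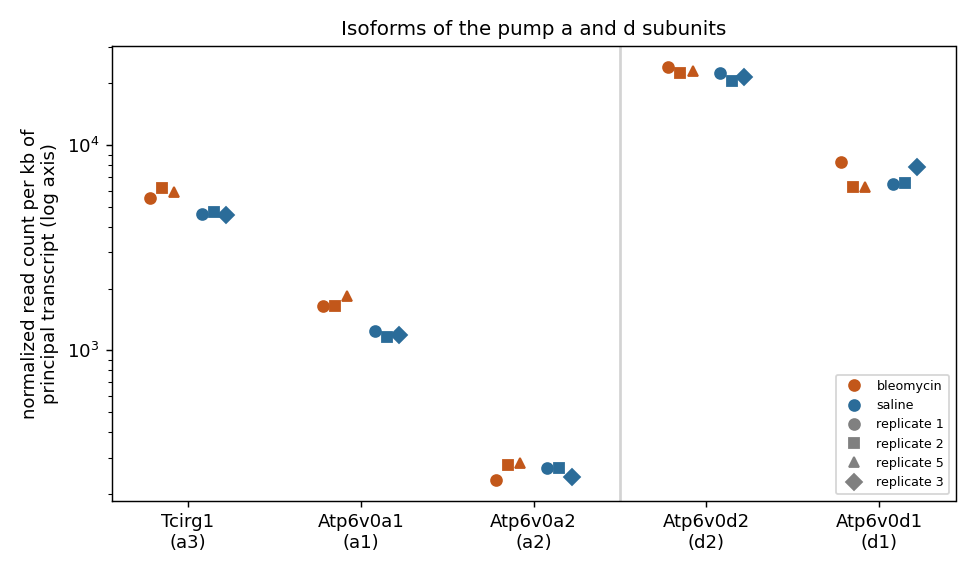
Normalized read count per kilobase of principal transcript (y axis, log scale) for the alternative a subunits (left of the line) and d subunits (right) in each bleomycin and saline library, with symbols for the replicate. Tcirg1 and Atp6v0d2 have the highest level among the a and d forms in all 6 libraries, and the Tcirg1 and Atp6v0a1 symbols of the groups do not overlap.

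The MiT factors were not called in either direction. Limma, edgeR and DESeq2 gave 0 calls among the 3, with 1 lower and 0 higher at an unadjusted p under 0.05. Tfeb (chr17:47737030-47792419, ENSMUSG00000023990) had values of 2261, 1972 and 1796 in bleomycin replicates 1, 2 and 5, against 2589.7, 3118 and 2460.4 in saline replicates 1, 2 and 3. It was the only one of the 37 genes whose bleomycin values all lay below the saline values, where 13.6% of all genes tested did so. Its log2 fold change was -0.44 ± 0.14 with a 95% interval of -0.75 to -0.12 (limma adjusted p = 0.0732). Without bleomycin replicate 1 it was called lower at a limma adjusted p of 0.0416, with a log2 fold change of -0.52. Tfe3 had values of 3259, 3659 and 3756 in bleomycin libraries, against 3019, 3476 and 3448 in saline libraries, and Mitf had 2648, 2756 and 2772 in bleomycin libraries, against 3260.4, 2719 and 2192 in saline libraries. Both overlapped, with 95% intervals of the log2 fold change of -0.15 to 0.36 for Tfe3 and -0.32 to 0.36 for Mitf. Tfec, the other member of the family, was also not called, at 5709, 4703 and 4344 in bleomycin libraries against 4244, 4257 and 5103 in saline libraries (log2 fold change 0.11, limma adjusted p = 0.685).

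The E-box that MiT factors bind, CACGTG, was looked for in promoter windows from RefSeq (GRCm38.p6), from 250 bases before to 50 after each listed start. Of the 37 genes, 32 had at least 1 window. A gene was counted if any of its windows held the letters, so genes with more listed starts had more windows to match in. CACGTG reads the same on both strands. It was present in 10 of the 32 genes, or 31.2%, against 8.09% of 27025 genes with a window. The Atp6v0e match was in a window at chr17:26676146-26676445, away from the gene start at 26663231. Of the 11 genes called higher 4 had it (Gla, Glb1, Lamp1 and Naglu), and of the other 21 with a window 6 had it (Atp6v0b, Atp6v0d1, Atp6v0e, Atp6v1a, Gaa and Mcoln1). The longer GTCACGTG, searched on both strands and by its letters always within a CACGTG match, was in 7 of the 32 genes and in 2.55% of all genes, and the palindrome that adds AC to its 3′ end was in 0 of the 32 and 0.37% of all genes. Another palindrome, TCACGTGA, was in 5 of the 32 genes, or 15.6%, and in 1.12% of all genes. It was in 1 of the 11 genes called higher (Gla) and in 4 of the other 21 (Atp6v0d1, Atp6v0e, Atp6v1a and Mcoln1). A match is a description of these letters in these windows only.

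Called genes and genes that were not called both carried the motif, and 5 windows are shown for that contrast, 5′ to 3′ on the strand of the gene, with CACGTG in capitals. Gla (chrX:134600956-134601255, minus strand) has 2 matches and Lamp1 (chr8:13158911-13159210, plus strand) has 4, and both were called higher. Mcoln1 (chr8:3500269-3500568, plus strand) has 2 matches and Atp6v0d1 (chr8:105566015-105566314, minus strand) has 1, and neither was called. Psap (chr10:60277378-60277677, plus strand), also called higher, has 0 in the window shown, 1 of 2 that RefSeq lists.
Gla: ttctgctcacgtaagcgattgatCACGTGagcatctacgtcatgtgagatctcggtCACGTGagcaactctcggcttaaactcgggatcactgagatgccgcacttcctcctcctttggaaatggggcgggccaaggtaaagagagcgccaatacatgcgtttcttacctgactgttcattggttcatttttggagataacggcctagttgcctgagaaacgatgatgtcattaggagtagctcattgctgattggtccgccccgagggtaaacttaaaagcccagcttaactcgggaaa
Lamp1: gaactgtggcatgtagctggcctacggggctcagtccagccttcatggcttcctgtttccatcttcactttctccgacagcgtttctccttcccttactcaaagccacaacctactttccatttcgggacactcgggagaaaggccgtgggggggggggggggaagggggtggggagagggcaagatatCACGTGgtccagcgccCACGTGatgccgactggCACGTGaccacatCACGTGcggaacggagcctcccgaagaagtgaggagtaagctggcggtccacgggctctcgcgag
Mcoln1: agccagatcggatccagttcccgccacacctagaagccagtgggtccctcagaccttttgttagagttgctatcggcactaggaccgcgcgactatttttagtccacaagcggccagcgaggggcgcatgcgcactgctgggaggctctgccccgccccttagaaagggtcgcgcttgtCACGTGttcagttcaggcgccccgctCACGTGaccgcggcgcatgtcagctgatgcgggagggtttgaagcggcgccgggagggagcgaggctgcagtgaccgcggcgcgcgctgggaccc
Atp6v0d1: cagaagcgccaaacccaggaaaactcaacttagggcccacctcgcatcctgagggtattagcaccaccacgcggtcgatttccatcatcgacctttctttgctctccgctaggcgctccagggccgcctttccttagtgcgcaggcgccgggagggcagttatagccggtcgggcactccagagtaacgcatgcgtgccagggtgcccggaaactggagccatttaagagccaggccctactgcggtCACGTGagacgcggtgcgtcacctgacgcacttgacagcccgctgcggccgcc
Psap: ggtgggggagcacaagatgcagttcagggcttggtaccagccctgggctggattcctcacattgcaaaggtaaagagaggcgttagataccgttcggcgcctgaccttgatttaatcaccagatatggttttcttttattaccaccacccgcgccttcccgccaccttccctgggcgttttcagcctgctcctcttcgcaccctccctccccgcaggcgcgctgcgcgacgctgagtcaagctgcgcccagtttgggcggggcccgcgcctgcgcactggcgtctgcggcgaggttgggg

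In Lamp1 the 4 matches begin at -61, -45, -28 and -15, counted in bases from the listed start, so all lie in the last stretch before it. In Gla they begin at -227 and -194, far upstream. In Mcoln1 they begin at -71 and -45, close to the positions in Lamp1, and in Atp6v0d1 the match begins at -3 and spans the start. Near matches to the start were therefore found in a called gene and in genes that were not called.

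Among other lysosomal genes, listed by function outside the 37, most calls were again hydrolases and membrane proteins. Of 116 such genes tested, 25 were called higher and 0 lower, with a median log2 fold change of 0.14. At an unadjusted p under 0.05, 37 were higher and 3 lower, and edgeR called 25 higher and 0 lower and DESeq2 26 and 0. Over all 13512 genes tested, limma called 9.76% higher and 3.9% lower, and 2103 were higher and 1393 lower at the unadjusted p. Of the 25 limma calls, 21 fell in the 3 lists of hydrolases and membrane proteins (5 of 17, 8 of 15 and 8 of 25) and 4 in the remaining lists.

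Among the other glycosidases and sulfatases, 5 of 17 were called higher, against 9.76% of all genes tested, with a median log2 fold change of 0.31. Sgsh, the heparan N-sulfatase, had low values of 88.0, 252 and 248 in bleomycin libraries, against 20.6, 26.1 and 23.3 in saline libraries (log2 fold change 2.87 ± 0.41, limma adjusted p = 0.00258). Its exons share 955 bases with Card14 on the other strand, so its reads could not be told apart from those of Card14 there. Galc, the galactosylceramidase, was 1.73-fold higher (limma adjusted p = 0.0053), and its exons share 400 bases with Gm47439 on the other strand.

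Among the other lipid, protein and nucleic acid hydrolases, 8 of 15 were called higher, against 9.76% of all genes tested. Their median log2 fold change was 0.50. Acp5, the tartrate-resistant acid phosphatase known as a marker of osteoclasts, had values of 22932, 24085.5 and 22966 in bleomycin libraries, against 8103, 11984 and 11656 in saline libraries, and was 2.24-fold higher (limma adjusted p = 0.00201). Scpep1, a serine carboxypeptidase, was 1.83-fold higher (limma adjusted p = 0.00143). Exons of Acp5 and Scpep1 share 137 and 96 bases with 6530413G14Rik and Scpep1os on the other strand. Gm2a, the activator that presents GM2 ganglioside to hexosaminidase A, was 1.75-fold higher (limma adjusted p = 0.00928), at a limma adjusted p of 0.0577 without bleomycin replicate 2 and 0.0587 without bleomycin replicate 5.

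Among the other membrane proteins and transporters, 8 of 25 were called higher, against 9.76% of all genes tested, with a median log2 fold change of 0.27. Cd63, a tetraspanin of late endosomes and lysosomes, had values of 33998, 25746 and 27909 in bleomycin libraries, against 4811, 6597 and 7160.5 in saline libraries. Its fold change, 4.75-fold with a log2 value of 2.25 ± 0.17 (limma adjusted p = 0.000171), was larger than that of any of the 37 genes. The endolysosomal cation channels Tpcn1 and Tpcn2 were 5.11-fold and 2.4-fold higher (limma adjusted p = 0.00233 and 0.00164). Tpcn1 was the less abundant, at 370.1, 521 and 632 in bleomycin libraries against 159, 69.5 and 80.6 in saline libraries.

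In the lists of other pump subunits, delivery, nutrient sensing and autophagy, 4 of 59 tested genes were called higher, or 6.78%, against 9.76% of all genes tested. Among the other pump subunits 0 of 6 were called by limma, edgeR or DESeq2, with 1 higher and 0 lower at an unadjusted p under 0.05 and a median log2 fold change of 0.07. Of 17 genes of delivery to the lysosome 1 was called, Igf2r, the cation-independent mannose 6-phosphate receptor that carries new hydrolases to endosomes. It had 754, 1265 and 1769.6 normalized reads in bleomycin libraries, against 35.3, 76.1 and 32.9 in saline libraries. All bleomycin libraries were many times above all saline libraries, with replicate 1 the lowest of the bleomycin libraries, and the log2 fold change was 4.71 ± 0.39 (26.1-fold, limma adjusted p = 0.000219). The other 16 had no call, among them Sumf1, which encodes the enzyme that activates sulfatases (log2 fold change 0.33, limma adjusted p = 0.0613) and the adaptor Gga2 (log2 fold change 0.36, limma adjusted p = 0.125). Exons of Gga2 share 720 bases with Gm44987 on the other strand.

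Of 20 genes of nutrient sensing at the lysosome 2 were called, both higher, a share near the 9.76% of all genes tested. Rragd, a Rag GTPase that acts at the lysosome with mTORC1 and that is known as a TFEB target, had values of 154, 216 and 206 in bleomycin libraries, against 32.4, 44.5 and 34.997 in saline libraries (5.03-fold, limma adjusted p = 0.000628). Fnip2, a folliculin partner, had 3429.7, 4901 and 5100.3 in bleomycin libraries, against 2097, 2539 and 1677 in saline libraries, and was 2.12-fold higher (limma adjusted p = 0.00747). The 14-3-3 gene Ywhab, next by p, had a log2 fold change of -0.26 (limma adjusted p = 0.138). Of 16 autophagy genes 1 was called, the kinase Ulk1, at a log2 fold change of 0.53 ± 0.15 (limma adjusted p = 0.0477). Without any 1 library other than bleomycin replicate 1 the limma adjusted p of Ulk1 was 0.0803 to 0.233. Wipi2 and Wipi1, which bind the forming autophagosome, had log2 fold changes of 0.33 and 0.44 (limma adjusted p = 0.0893 and 0.21).

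**Figure D5:**
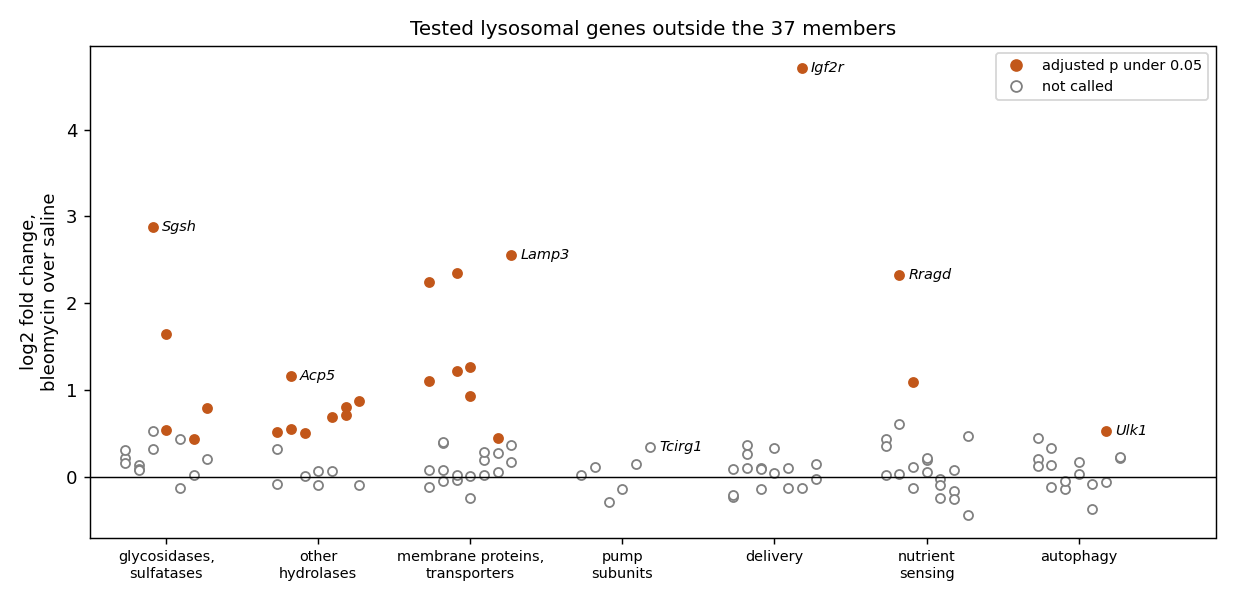
Log2 fold change of bleomycin over saline libraries (y axis) for 116 tested lysosomal and autophagy genes outside the 37, in 7 lists along the x axis, with the name of the gene with the largest value in each list. Filled points are the 25 genes with an adjusted p under 0.05 by limma, all above 0, and 21 of them are in the 3 lists on the left.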

How the data were processed

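RNA sequencing of alveolar macrophages gave 1 table of 22962 genes in 6 libraries, 3 per group. The submitters' processing notes name HTSeq 0.6.0, STAR 2.5.2b, DESeq2, bcl2fastq 2.18.0.12 and mm10. Not given in the sources used here are what each tool did, the annotation, the strand setting and filters. The table deposited by the authors holds a normalized signal. In each library 100% of values above 0 equalled a whole number of reads times a constant (within 0.05 of a read), so they are gene read counts divided by 1 size factor, and dividing by it recovered the reads. The number of columns left unused was 0.

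Symbols were matched for 22884 identifiers and positions taken from an annotation of GRCm38. The main test was limma 3.58.1 (R 4.3.3) with an intensity trend, applied to log2(value + 1) of genes at 10 or above in at least 3 libraries, two-sided, with Benjamini-Hochberg adjustment over all 13512 such genes. Fold changes on this scale understate changes of low genes. Levels per kilobase use the longest principal transcript. A 95% interval is from limma's standard error and covers the spread between libraries.

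The 37 genes, the lists and the tests were chosen with earlier results of these data known. Named are all called members, and of each other list the 3 genes with the smallest p, with Tcirg1, Atp6v0a2, Atp6v0d2 and Tfec. A gene that this rule names is not reported here. The alternatives changed the pseudocount (to 0.5 or 5), dropped the filter or raised it to 50, used TMM or quantile scaling, no trend or robust variances, applied edgeR 4.0.16 and DESeq2 1.42.0 to the recovered reads, added a replicate block, or left out each library. The fit was tested on simulated counts, where it recovered 67.7% of 2-fold changes and 93.75% of 4-fold changes. Of its calls there, 8.38% were unchanged genes. Changes under 2-fold, the size of most calls here, were not simulated, so a gene not called may still have changed. Sequences are from RefSeq (GRCm38.p6).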

Additional observations from a re-analysis of the deposited data

How the results depend on the processing

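The 11 members called higher numbered 10 with no filter, 12 with quantile scaling, 7 with no intensity trend and 13 with the exon length trend removed. The number was 11 with the other pseudocounts, the higher minimum, TMM, robust variances, edgeR and DESeq2, and 3 to 11 with 1 library left out. Members called lower were 0 to 1 with 1 library left out, and 1 (Tfeb) with bleomycin replicate 1 and saline replicate 3 left out together. All genes called, 1846 with all libraries, were 664 to 1675 with 1 library left out. Gla, Psap and Npc2 were called in all 17 alternatives other than the 2 added after the data were seen. Over these alternatives 584 member values kept their side of the threshold, 42 lost a call and 3 gained one. Of the 584, 18 had the opposite sign, in 8 members that were not called. Of all calls 71.5% were higher, 61.0% with quantile scaling. The labels do not say whether the replicate numbers pair the libraries. Deviations correlated at -0.20 for number 1 and 0.02 for number 2, the numbers shared, and at -0.17 to 0.23 for unlike numbers. So few pairs cannot decide whether libraries of the same number were paired. With the replicate block, 3 members were called higher and 1147 genes in all, of which 83.1% were higher. Only numbers 1 and 2 hold a library of each group, so bleomycin replicate 5 and saline replicate 3 did not enter that comparison. The blocked fit thus had fewer libraries to compare than the main fit, and its counts are not on a par with the others. The cause of the other shifts was not tested. With 3 libraries a group, calls of 1.34-fold (Hexa) to 1.67-fold (Man2b1) were lost in some alternatives, and unstated strand setting limits genes that overlap others.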
